A study of Mus musculus with 6 samples.

Results

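Integrins are the receptors by which cells hold on to the extracellular matrix, and laminins are the main adhesive proteins of basement membranes. The genes were all those named Itga, Itgb or Lama, Lamb and Lamc with a chain number or letter, taken from probe sets with 1 gene symbol. These are 35 of 22180 measured genes, 25 integrin chains (17 alpha and 8 beta) and 10 laminin chains. Itga10 was not analysed here. Expression was measured on 6 one-colour Affymetrix arrays of cultured mouse melanocytes, the pigment cells that arise from the neural crest. The melan-Ink4a-Arf-1; Sox10LacZ/+ line (heterozygous here), made from mice of 3 days of age and labelled Ink4a-Arf null, has 3 arrays. The melan-Ink4a-Arf-1 (melan-a) line (wild type here, since its label names no Sox10 allele) also has 3, and its mice are labelled Cdkn2a tm1RDp/tm1RDp, so by their labels both lines lack Ink4a-Arf. Both come from mice backcrossed to C57BL/6J, and both grew with 10% fetal bovine serum, 200 nM of the phorbol ester 12-O-tetradecanoylphorbol 13-acetate and 200 pM cholera toxin. With 1 cell line per genotype, effects of the line and of the genotype cannot be told apart, and nothing states that the replicates are separate cultures, so p-values cover no more than the scatter among these 6 arrays.

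An integrin is a pair of an alpha and a beta chain that spans the membrane, and the alpha chain largely sets which ligand is bound. A laminin is a trimer of an alpha, a beta and a gamma chain, whose alpha chain carries the main site that integrins recognise. In skin, melanocytes of the epidermis rest on a basement membrane that holds laminins, and Sox10 is a transcription factor that the lineage needs.

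Values are log2 RMA signals, differences are heterozygous minus wild type, and a gene passed at a limma p-value below 0.05 after Benjamini-Hochberg adjustment over all genes. The array medians lay between 5.72 and 5.78. Wild-type replicate 2 stood apart, since 261 genes there differed 2-fold or more from the average of its 2 fellow replicates. That count was 54 or fewer for every other array. Sox10 had 9.70, 9.70 and 9.79 in the heterozygous line, against 9.98, 9.80 and 9.95 in the wild type, and its difference of −0.18 did not pass (adjusted p 0.213). Which part of the Sox10 transcript its probe set reads is not stated, so this signal does not check the allele. Cdkn2a had 7.16, 7.03 and 7.01 in the heterozygous line, against 7.15, 7.04 and 7.29 in the wild type (difference −0.091, adjusted p 0.61), and the part of its transcript that is read is likewise unknown, so the null allele in both lines rests on the labels. Of 10 melanocyte markers, 1 was higher (Mitf) and 4 lower (led by Tyr, the tyrosinase gene, then Gpr143, Oca2 and Dct). All 10 averaged more than 5.20, the 40th percentile over probe sets. Of these markers 50% passed, against 13.4% of all genes and 18.7% of those with a mean above that percentile. Without wild-type replicate 2, 3 of these markers were higher and 4 lower. Signals under that percentile are called dim.

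Of the 35 genes, the heterozygous line had 5 higher and 9 lower, while 21 did not pass. Over all genes 13.4% passed (7.46% higher, 5.92% lower), against 40% of the integrin and laminin genes. Integrin chains gave 4 higher and 7 lower of 25, and laminin chains 1 higher and 2 lower of 10. The median difference was −0.046 for the 35 genes and 0.0014 for all genes, while the median size of the difference, sign ignored, was 0.19 for the 35 and 0.12 for all. In both lines 28 of these genes were brighter than the 40th percentile, and all 14 that passed were among them. Of the 14668 genes with a mean above that percentile, 18.7% passed (10.5% higher, 8.23% lower). For 17 of the 35 genes (48.6%) no heterozygous array fell within the wild-type range or the reverse, against 31.6% of all genes. With a threshold of 2-fold as well, which 3.53% of all genes met, Itgb8 and Lama5 were higher and Itga8 lower. The calls for Itga1, Itga3, Itga8, Itga9, Itgb8 and Lama5 were kept under every alternative other than a stricter threshold, including each single array left out in turn. Removing any 1 heterozygous array left 2 integrin chains higher and 3 or 4 lower, with 979 to 1013 genes higher and 779 to 804 lower overall. Without wild-type replicate 1, 4 integrin chains were lower, and removal of any array except wild-type replicate 2 left 0 or 1 laminin chain lower. Without wild-type replicate 2, 5 of the 35 genes were higher and 11 lower. In cultures measured in bulk, fewer cells with a transcript and less of it per cell cannot be told apart.

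**Figure D1:**
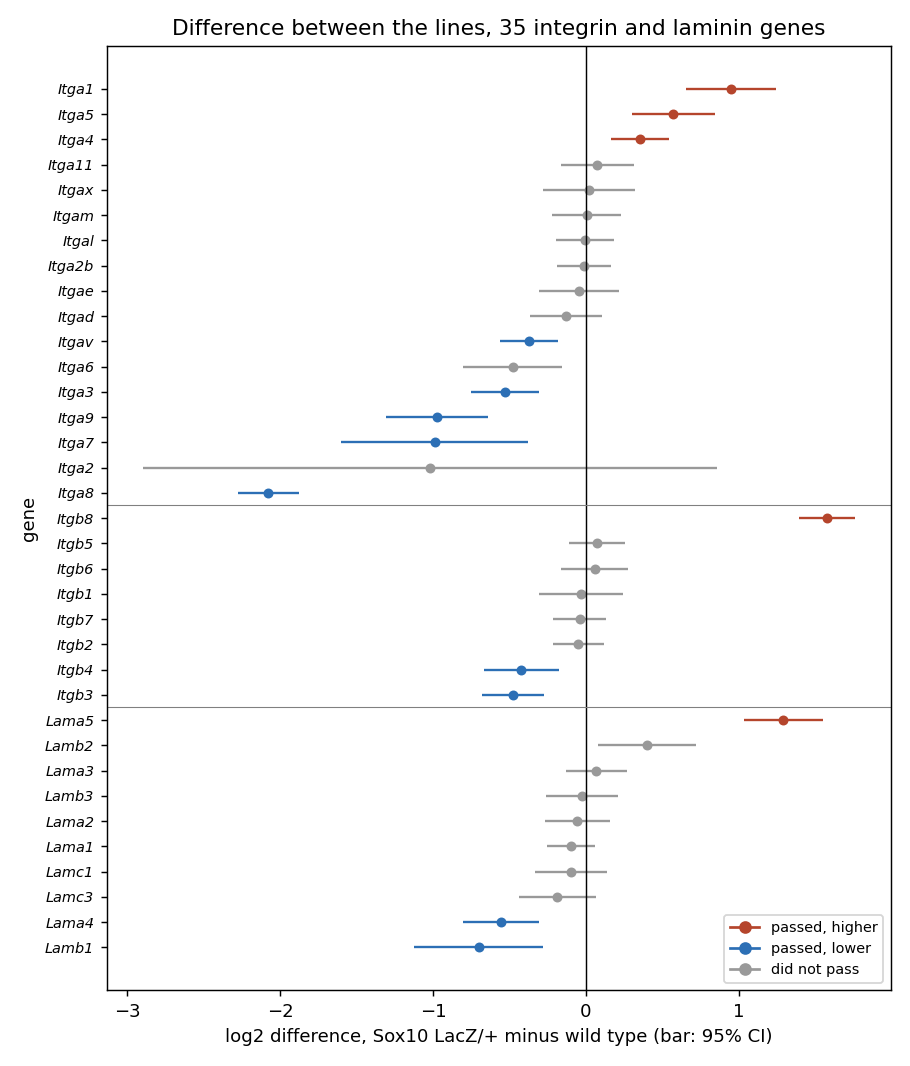
Log2 difference (heterozygous minus wild type) of each of the 35 genes, with its 95% confidence interval from the limma fit, 3 arrays per line; integrin alpha chains stand at the top, beta chains in the middle and laminin chains at the bottom. Red points passed and were higher, blue points passed and were lower, and Itga8 at the low end and Itgb8 at the high end stand farthest from 0.

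With all 6 arrays, the fall of Itga8 was the largest among the 35 genes. Its chain pairs with the beta chain of Itgb1 and binds ligands with the RGD motif, nephronectin above all. Itga8 (Entrez 241226; chromosome 2, 12106632 to 12301985) had 8.28, 8.08 and 8.06 in the heterozygous line, against 10.18, 10.28 and 10.19 in the wild type. The 3 heterozygous arrays all lay far below the 3 wild-type arrays, which were close together. The difference was −2.07 (SE 0.085, adjusted p 2.07e-06), and the heterozygous signal was 23.7% of the wild type. Npnt, the nephronectin gene, had 9.76, 9.86 and 9.90 in the heterozygous line, against 11.29, 11.53 and 11.30 in the wild type. It was lower on every heterozygous array too, with a difference of −1.53 (SE 0.092, adjusted p 1.99e-05).

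The largest rise was that of Itgb8, whose chain pairs with the chain of Itgav and binds latent TGF-beta. Itgb8 (Entrez 320910; chromosome 12, 119162803 to 119238276) had 9.41, 9.33 and 9.37 in the heterozygous line, against 7.79, 7.70 and 7.91 in the wild type. The lines were well apart, and the difference was 1.57 (SE 0.08, adjusted p 7.04e-06), a 2.98-fold higher signal in the heterozygous line. The promoters of Itga8, Itgb8 and Lama5, the genes past 2-fold, are shown because they carry the largest differences that passed. They are RefSeq sequences of build GRCm38.p6, 250 bases before to 50 after an annotated transcript start, and capitals mark the Sox motif ACAATG. Itga8 lies at chr2:12301895-12302194, Itgb8 at chr12:119238227-119238526 and Lama5 at chr2:180225810-180226109, each on the minus strand. The start used for Itga8 and for Lama5 lies inside the gene bounds given here, not at their end.
Itga8: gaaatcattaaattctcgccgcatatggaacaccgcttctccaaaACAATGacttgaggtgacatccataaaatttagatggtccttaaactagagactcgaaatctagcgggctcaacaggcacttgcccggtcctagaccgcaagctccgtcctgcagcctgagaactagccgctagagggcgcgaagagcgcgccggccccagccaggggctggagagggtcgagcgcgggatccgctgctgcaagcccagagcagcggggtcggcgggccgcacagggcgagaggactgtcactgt
Itgb8: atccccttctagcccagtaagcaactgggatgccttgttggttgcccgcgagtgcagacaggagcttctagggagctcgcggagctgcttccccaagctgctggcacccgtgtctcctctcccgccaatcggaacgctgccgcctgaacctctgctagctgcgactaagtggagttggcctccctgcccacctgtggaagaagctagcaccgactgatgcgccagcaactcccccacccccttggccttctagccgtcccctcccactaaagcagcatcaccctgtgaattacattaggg
Lama5: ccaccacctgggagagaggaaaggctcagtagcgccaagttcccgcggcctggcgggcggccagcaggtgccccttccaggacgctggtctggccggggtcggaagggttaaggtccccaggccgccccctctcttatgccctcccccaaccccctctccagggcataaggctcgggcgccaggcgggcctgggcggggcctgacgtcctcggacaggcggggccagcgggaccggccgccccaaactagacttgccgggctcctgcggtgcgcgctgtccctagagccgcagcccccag
The motifs searched on both strands were ACAAAG and ACAATG, which are cores bound by Sox proteins, and the E-box CACGTG bound by Mitf, and none of the 3 contains another. Itga8 held ACAATG once, at −205 from that transcript start, and the promoters of Itgb8 and Lama5 held 0 of the 3 motifs. The promoter sequences used here held 25 windows for 22 of the 35 genes. Either Sox core stood in 3 of these 25, those of Itga8, Itgb1 and the inner start of Itga3, against 28.6% of 32851 windows of all genes. The E-box stood in 0 of the 25 and in 7.15% of all windows.

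Chains of the RGD-binding integrins, Itga8 and Itgb8 included, moved both ways. Of 8 such genes, 2 were higher, 3 lower and 3 did not pass. Thus 62.5% passed, against 13.4% of all genes. Among genes not dim by their mean, 71.4% of the RGD-binding chains passed, against 18.7% of all genes. These shares were not compared by a test. Itgav, which makes a receptor for vitronectin and other RGD ligands, had 11.09, 11.01 and 11.06 in the heterozygous line, against 11.55, 11.34 and 11.38 in the wild type. Every heterozygous array lay below every wild-type array, but the groups were only 0.25 apart at their closest. The difference was −0.37 (SE 0.081, adjusted p 0.0196). Itgb3, the chain that pairs with Itgav in the vitronectin receptor, had 9.51, 9.47 and 9.40 in the heterozygous line, against 10.07, 9.93 and 9.80 in the wild type. It was lower on all heterozygous arrays, with a difference of −0.48 (SE 0.088, adjusted p 0.0097). Itgb5, another partner of Itgav, had 10.39, 10.40 and 10.36 in the heterozygous line, against 10.43, 10.24 and 10.26 in the wild type. Its arrays overlapped between the lines, and the difference was 0.074 (95% confidence interval −0.11 to 0.26). The call for Itgav was lost when wild-type replicate 1 or a heterozygous array was removed, and with the mean of its probe sets (adjusted p 0.0562 to 0.0865 in these, 0.00575 to 0.0865 over all alternatives). The call for Itgb3 was lost without heterozygous replicate 3 (adjusted p 0.0521; the alternatives spanned 0.00338 to 0.0521). A further Itgav probe set was dim, averaging 4.89 in heterozygous and 5.20 in wild-type arrays.

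Itga5, whose chain forms the main fibronectin receptor with that of Itgb1, was higher in the heterozygous line. Itga5 (Entrez 16402; chromosome 15, 103344286 to 103366791) had 10.19, 10.08 and 10.08 in the heterozygous line, against 9.67, 9.69 and 9.29 in the wild type. The heterozygous arrays were all above the wild-type arrays, among which replicate 3 was the low one. The difference was 0.57 (SE 0.12, adjusted p 0.0157), and it was no longer called without heterozygous replicate 1, 2 or 3 (adjusted p 0.0538 to 0.0712, 0.00625 to 0.0712 over all alternatives). Fn1, the fibronectin gene, had 12.70, 12.64 and 12.66 in the heterozygous line, against 12.80, 12.38 and 12.70 in the wild type, with arrays that overlapped and a difference of 0.04 (adjusted p 0.878). Of the remaining RGD-binding chains, Itga2b, the platelet chain of the fibrinogen receptor, had 6.07, 5.93 and 6.08 in the heterozygous line, against 6.04, 6.0 and 6.08 in the wild type. Itgb6, an epithelial partner of Itgav, was dim, at 4.68 to 4.99 over all 6 arrays. Neither passed.

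**Figure D2:**
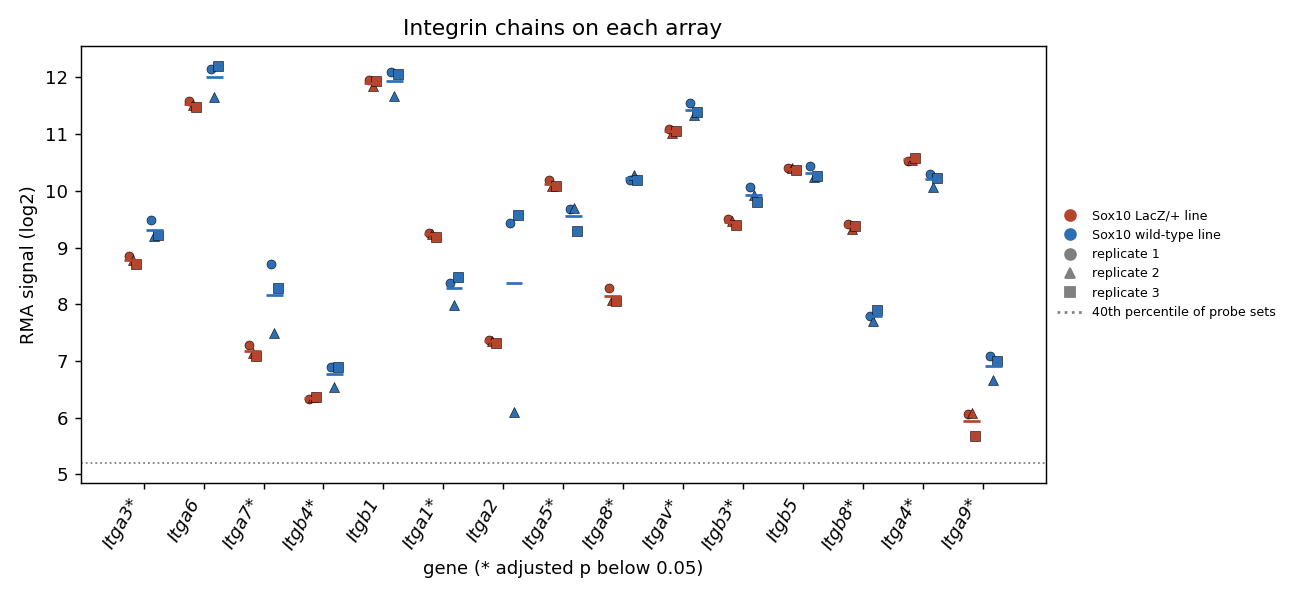
RMA signal (log2) of 15 integrin chains on each array, red for the heterozygous line at the left of each gene and blue for the wild type at the right; circles, triangles and squares are replicates 1, 2 and 3, bars are means, and the dotted line is the 40th percentile of all probe sets. Itga8 and Itgb8 show the widest gaps between the lines, and for Itga2 wild-type replicate 2 (6.10) lies below the heterozygous arrays while the other wild-type arrays lie above them.

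The genes listed here as laminin-binding integrins (Itga3, Itga6, Itga7, Itgb1 and Itgb4) were lower or did not pass, with Itga1 and Itga2 listed under collagen binding instead. Of 5 such genes, 3 were lower, 0 higher by limma and 2 did not pass, and 4 had an unadjusted p below 0.05, all with lower signal. Thus 60% passed, against 13.4% of all genes (5.92% lower) and 18.7% of those not dim by their mean (8.23% lower). None of the 5 was dim, and these shares were not compared by a test. The median difference of the 5 genes was −0.48, against 0.0014 over all genes. Itga3, whose chain binds laminins with the chain of Itgb1, had 8.85, 8.77 and 8.70 in the heterozygous line, against 9.49, 9.21 and 9.22 in the wild type. Its heterozygous arrays all lay below the wild type, with a difference of −0.53 (SE 0.097, adjusted p 0.00905). Itga7, a laminin receptor chain best known from muscle, had 7.29, 7.15 and 7.08 in the heterozygous line, against 8.70, 7.50 and 8.29 in the wild type. The groups did not overlap, but the wild-type arrays spread over more than 1 unit, with replicate 2 the nearest to the heterozygous line. Its difference was −0.99 (SE 0.26, adjusted p 0.0456); without wild-type replicate 2 it was −1.32 (adjusted p 0.000507), and with any other array removed it no longer passed (adjusted p up to 0.14, the highest of all alternatives).

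Itga6, whose chain pairs with that of Itgb1 or Itgb4 in laminin receptors, had 11.58, 11.51 and 11.48 in the heterozygous line, against 12.14, 11.66 and 12.20 in the wild type. The heterozygous arrays were again lower, with wild-type replicate 2 the nearest to them. The difference of −0.48 (SE 0.14) did not pass at an adjusted p of 0.0632; it passed without wild-type replicate 2, at −0.65 and an adjusted p of 0.000835 (0.000835 to 0.188 over all alternatives). Itgb4, the chain that joins Itga6 in hemidesmosomes of epithelia, had 6.34, 6.36 and 6.36 in the heterozygous line, against 6.89, 6.54 and 6.89 in the wild type. The heterozygous arrays were almost level and below all wild-type arrays, with a difference of −0.42 (SE 0.11, adjusted p 0.0366), and the call was lost when any array except wild-type replicate 2 was removed (the alternatives spanned adjusted p 0.00134 to 0.122). A probe set that carries both Itgb4 and B230344G16Rik was not used for Itgb4. It averaged 5.57 in heterozygous and 5.61 in wild-type arrays, and its arrays overlapped between the lines. Itgb1, the shared partner of most alpha chains described here, had 11.95, 11.84 and 11.93 in the heterozygous line, against 12.09, 11.67 and 12.05 in the wild type. The lines overlapped, and the difference was −0.032 (95% confidence interval −0.30 to 0.24, adjusted p 0.909).

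The collagen-binding chains Itga1 and Itga2, neighbours on chromosome 13, had opposite signs. Itga1 (Entrez 109700; chromosome 13, 114958079 to 115101964) had 9.26, 9.24 and 9.19 in the heterozygous line, against 8.38, 7.99 and 8.48 in the wild type. It was higher on all heterozygous arrays, by 0.95 (SE 0.13, adjusted p 0.00182). RefSeq annotates a protein-coding gene that overlaps Itga1 (Pelo), as it does for the called genes Itga4 (Cerkl), Itga7 (Mettl7b) and Itgb4 (Galk1), and which transcript these probe sets read is not stated. Itga2 (Entrez 16398; chromosome 13, 114833081 to 114932100) had 7.38, 7.35 and 7.32 in the heterozygous line, against 9.44, 6.10 and 9.56 in the wild type. The heterozygous arrays lay between wild-type replicate 2, which was the lowest of all 6, and the other wild-type arrays, which were about 2 units higher. The difference was −1.02 (95% confidence interval −2.90 to 0.86, adjusted p 0.511, exact 2-sided permutation p 0.4 with 3 arrays per line) and did not pass. Without wild-type replicate 2 it was −2.15 with an adjusted p of 2.73e-06 (2.73e-06 to 0.828 over all alternatives), so its call rests on that array. Itga11, a collagen receptor chain of mesenchymal cells, had 5.32, 5.33 and 5.45 in the heterozygous line, against 5.50, 5.18 and 5.19 in the wild type, and did not pass (adjusted p 0.737).

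Itga4 and Itga9 encode the related alpha chains that bind, among others, Vcam1 and fibronectin (Itga4) and tenascin C (Itga9). Itga4 (Entrez 16401; chromosome 2, 79255426 to 79333114) had 10.53, 10.54 and 10.59 in the heterozygous line, against 10.30, 10.07 and 10.23 in the wild type. The heterozygous arrays were within 0.1 of each other and above the wild type, by 0.35 (SE 0.082, adjusted p 0.0268). When wild-type replicate 3 or a heterozygous array was removed it did not pass (adjusted p 0.0551 to 0.112, 0.0123 to 0.112 over all alternatives). Itga9 (Entrez 104099; chromosome 9, 118606709 to 118901003) had 6.07, 6.08 and 5.68 in the heterozygous line, against 7.08, 6.67 and 7.0 in the wild type. All heterozygous arrays were lower, with a difference of −0.97 (SE 0.14, adjusted p 0.00317), and the heterozygous signal was 50.9% of the wild type. A probe set that carries both Cerkl and Itga4 was not used for Itga4; it averaged 6.96 in heterozygous and 6.74 in wild-type arrays.

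Of the 7 integrin genes typical of leukocytes, 0 passed by limma and 0 had an unadjusted p below 0.05. Over all genes 13.4% passed, so a count of 0 in a list this small says little. Only 3 of the 7 were not dim by their mean. The signals of all 7 on the 6 arrays ranged from 4.18 to 5.65, and the differences from −0.13 to 0.02. Itgal had 5.46, 5.54 and 5.45 in the heterozygous line, against 5.61, 5.44 and 5.41 in the wild type. Itgb2, the beta chain of leukocyte integrins, had 5.45, 5.40 and 5.35 in the heterozygous line, against 5.41, 5.51 and 5.42 in the wild type. Itgb7, the partner of Itga4 and Itgae in lymphocytes, had 5.48, 5.55 and 5.65 in the heterozygous line, against 5.58, 5.60 and 5.61 in the wild type. In each of the 3 the lines overlapped, and Itgad, Itgae, Itgam and Itgax were dim. None of the 8 measured leukocyte markers, of which Itgam is also 1 of the 7 genes above, passed by limma (1 with an unadjusted p below 0.05). Only 4 of these 8 were not dim by their mean, so this count too says little beside the share of 13.4%. Without wild-type replicate 2, 1 of these markers, Lyz2, was lower by limma (−0.74, adjusted p 0.00122). The signal of Ptprc, the pan-leukocyte marker CD45, averaged 4.0 in heterozygous and 3.91 in wild-type arrays. The summed linear signal of the leukocyte markers was 309 to 315 in heterozygous and 336 to 367 in wild-type arrays.

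Among laminin chains, Lama5 was higher and Lama4 and Lamb1 were lower in the heterozygous line. Lama5 encodes an alpha chain found in many adult basement membranes, and Lama4 an alpha chain best known from blood vessels and other mesenchymal tissue. Lama5 (Entrez 16776; chromosome 2, 180176373 to 180225904) had 7.65, 7.61 and 7.44 in the heterozygous line, against 6.21, 6.49 and 6.13 in the wild type. The lines were about 1 unit apart at their closest, and the difference was 1.29 (SE 0.11, adjusted p 0.000158), or 2.45-fold. Lama4 (Entrez 16775; chromosome 10, 38965515 to 39110188) had 11.02, 10.95 and 10.95 in the heterozygous line, against 11.67, 11.29 and 11.61 in the wild type. Every heterozygous array was lower, with a difference of −0.55 (SE 0.11, adjusted p 0.0119). The call for Lama4 was lost without heterozygous replicate 2 or 3 (adjusted p 0.0541 and 0.0542; the alternatives spanned 0.00063 to 0.0542).

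The beta and gamma chains join these alpha chains in trimers. Lamb1 (Entrez 16777; chromosome 12, 31265146 to 31329644) had 9.36, 9.36 and 9.23 in the heterozygous line, against 10.32, 9.55 and 10.19 in the wild type. Its heterozygous arrays lay below the wild type, of which replicate 2 was the nearest, and the difference was −0.70 (SE 0.18, adjusted p 0.0422). Without wild-type replicate 2 it was −0.94 (adjusted p 0.00027), and with any other array removed it did not pass (adjusted p up to 0.139, the highest of all alternatives). Lamb2, the alternative beta chain, had 10.22, 10.27 and 10.23 in the heterozygous line, against 10.08, 9.51 and 9.93 in the wild type. It was higher on every heterozygous array, but the difference of 0.40 (SE 0.14) did not pass at an adjusted p of 0.113. Lamc1, the common gamma chain, had 10.74, 10.63 and 10.59 in the heterozygous line, against 10.83, 10.55 and 10.88 in the wild type. The lines overlapped, with a difference of −0.098 (95% confidence interval −0.33 to 0.14).

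The remaining laminin chains stayed near or below the 40th percentile on all arrays, between 5.0 and 5.76, and none passed. Lama3, an alpha chain of epithelial laminin, had 5.71, 5.54 and 5.76 in the heterozygous line, against 5.55, 5.69 and 5.56 in the wild type. Lamb3, its epithelial beta partner, had 5.44, 5.33 and 5.23 in the heterozygous line, against 5.19, 5.51 and 5.37 in the wild type. Lamc3 had 5.15, 5.20 and 5.47 in the heterozygous line, against 5.37, 5.41 and 5.60 in the wild type. These lines overlapped. Lama1 and Lama2, alpha chains of embryonic and of muscle basement membranes, were dim, and the Lama1 arrays, which did not overlap, were only 0.04 apart at their closest.

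**Figure D3:**
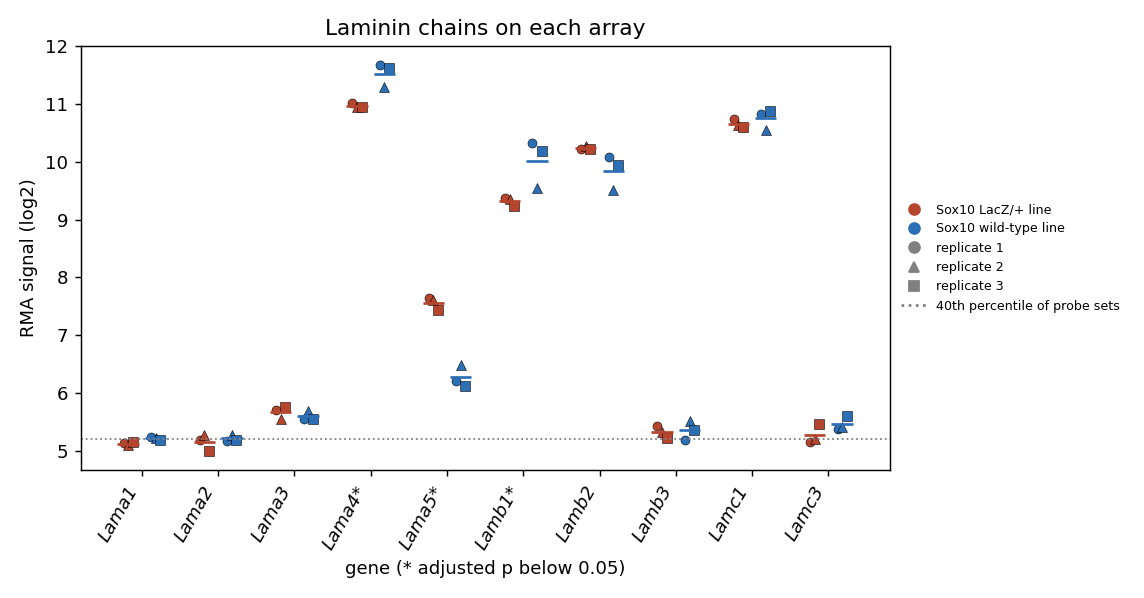
RMA signal (log2) of the 10 laminin chains on each array, red for the heterozygous line at the left of each gene and blue for the wild type at the right; symbols are replicates, bars are means, and the dotted line is the 40th percentile of all probe sets. Lama5 is higher and Lama4 and Lamb1 are lower in the heterozygous line, and Lama1, Lama2, Lama3, Lamb3 and Lamc3 lie near the dotted line in both.

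Other genes that work with integrins and laminins were counted in 3 lists. Of 19 genes for basement membrane partners and other laminin receptors, 1 was higher, 6 were lower and 12 did not pass (36.8% passed; median −0.037). Hspg2, which encodes the basement membrane proteoglycan perlecan, had 8.92, 8.83 and 8.82 in the heterozygous line, against 11.18, 10.47 and 11.06 in the wild type. It was lower on all heterozygous arrays, with a difference of −2.04 (SE 0.17, adjusted p 0.000132), and Nid1 (nidogen, which links laminin to type IV collagen) differed by −1.26 (SE 0.11, adjusted p 0.000185). Npnt, given beside Itga8, belongs to this list too. Named after their values were seen, the collagen chain gene Col4a1 was the higher one (0.84), and the laminin receptor genes Dag1 (−0.35) and Bcam (−0.57) and the syndecan gene Sdc3 (−0.93) completed the lower ones. Without wild-type replicate 2, 9 of the list were lower and 1 higher.

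Of 26 measured genes for integrin activation and adhesion adaptors, 4 were higher, 3 lower and 19 did not pass (26.9% passed; median −0.048). Zyx, which encodes the focal adhesion protein zyxin, had 11.48, 11.41 and 11.42 in the heterozygous line, against 10.28, 10.46 and 10.19 in the wild type. It was higher on all heterozygous arrays, by 1.12 (SE 0.089, adjusted p 9.77e-05). Pxn, which encodes the scaffold paxillin, had 8.45, 8.47 and 8.50 in the heterozygous line, against 9.74, 9.40 and 9.56 in the wild type. It was lower on all of them, with a difference of −1.09 (SE 0.098, adjusted p 0.000198), and Parvg, a parvin gene, was higher by 0.67 (SE 0.13, adjusted p 0.0115). Named after their values were seen, Vcl (vinculin, 0.46) and Actn1 (an actinin, 0.34) were also higher, and Tln2 (a talin, −0.58) and the kinase gene Src (−0.29) lower.

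Of 19 measured genes for other integrin ligands, 4 were higher, 1 lower and 14 did not pass (26.3% passed; median 0.04). Over all genes 13.4% passed, and 18.7% of those not dim by their mean. Among genes not dim by their mean, 38.5% of the ligands, 29.2% of the adaptors and 36.8% of the basement membrane list passed. These shares were not compared by a test. Tnc, the tenascin C gene, had 9.31, 9.03 and 9.04 in the heterozygous line, against 6.89, 6.30 and 6.81 in the wild type. It was higher on all heterozygous arrays, by 2.46 (SE 0.16, adjusted p 3.24e-05). Thbs1, a thrombospondin gene, was higher by 1.38 (SE 0.14, adjusted p 0.000366), and Vcam1, a cell surface ligand of the Itga4 chain, by 0.98 (SE 0.088, adjusted p 0.000212). Named after their values were seen, Emilin1 (0.92) was the other higher gene and Egfl7 (−0.48) the lower one. Without wild-type replicate 2 the list had 5 higher and 3 lower, so the count of lower genes moved with that array.

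**Figure D4:**
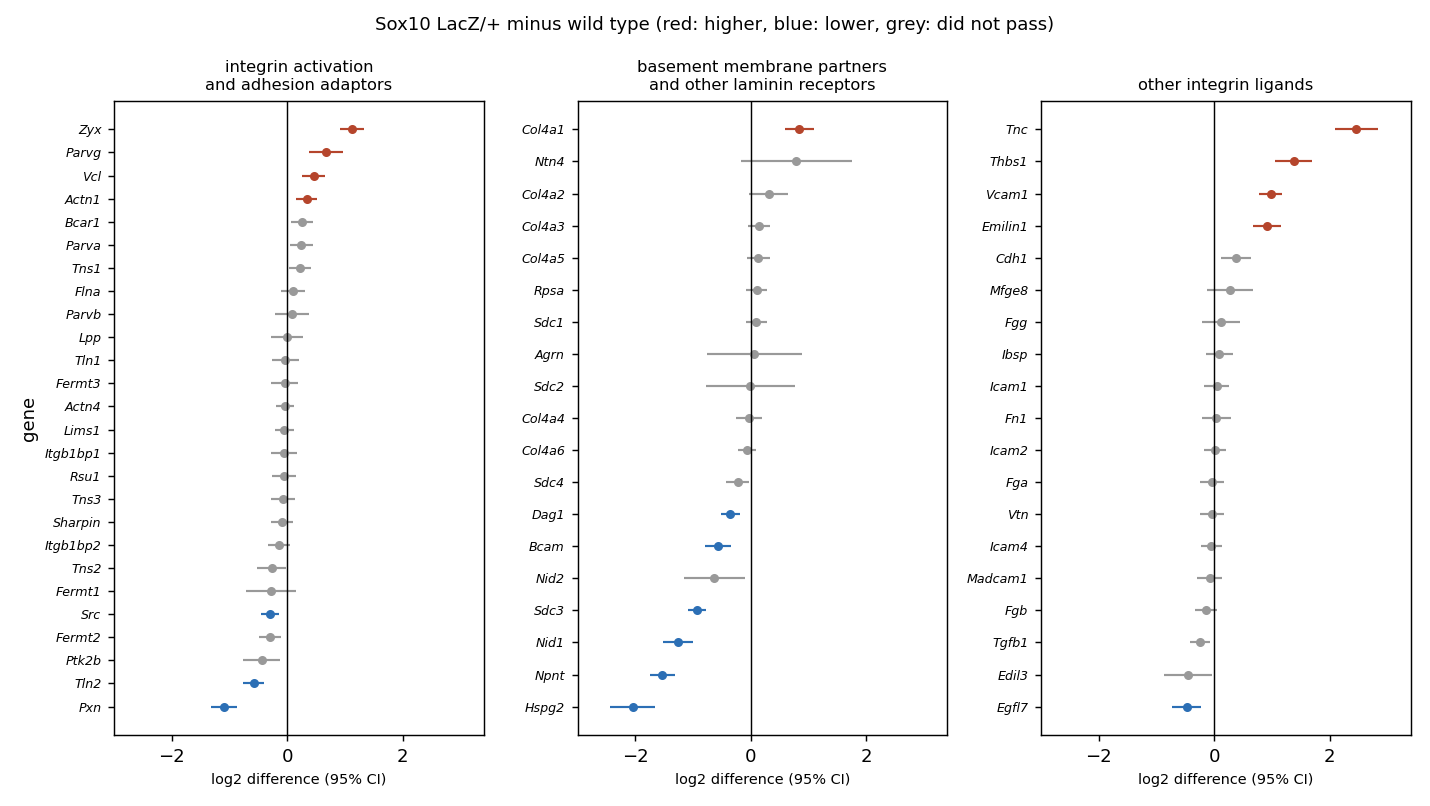
Log2 difference (heterozygous minus wild type) with its 95% confidence interval for the genes of the 3 lists, 3 arrays per line; red passed and was higher, blue passed and was lower, grey did not pass. Hspg2, Npnt and Nid1 lie at the low end of the basement membrane list, Pxn and Zyx at opposite ends of the adaptor list, and Tnc at the high end of the ligand list.

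Several genes listed here as markers of other cell types also moved with the line. Whether they mark other cells in these cultures was not tested. Of 10 fibroblast markers, 3 were higher (Dcn by 5.92, Pdgfrb by 4.08 and Col1a2 by 1.24) and 7 did not pass. Of those 7, Postn (1.10), Fap (0.22), Pdgfra (0.15) and Col3a1 (0.10) had positive differences. Col1a1 (−0.20), Thy1 (−0.14) and Lum (−0.10) had negative ones. The summed linear signal of all 10 was 4355 to 4393 in the heterozygous arrays and 775 to 1008 in the wild-type arrays. Of 6 measured Schwann cell markers, 4 were lower, led by Gjc3 (−5.93), with a summed signal of 2838 to 2916 in heterozygous and 7342 to 8560 in wild-type arrays. Among the lower ones, Erbb3 averaged 10.31 in heterozygous and 11.28 in wild-type arrays, and Pmp22 10.47 and 10.89. Both were thus well above the 40th percentile in both lines. By share, 30% of the fibroblast and 66.7% of the Schwann cell markers passed, against 13.4% of all genes. Of 8 endothelial markers only Vwf was higher (0.38), and this share of 12.5% was near that of all genes. The endothelial sums were 293 to 312 in heterozygous and 271 to 288 in wild-type arrays. Of 9 keratinocyte markers 0 passed by limma, and 2 had an unadjusted p below 0.05 (sums of 666 to 744 in heterozygous and 624 to 757 in wild-type arrays). Without wild-type replicate 2, 4 fibroblast markers and 1 keratinocyte marker were higher, and the Schwann cell and endothelial counts did not change. Log2 array values have no zero, and 3 of the fibroblast, 4 of the endothelial and 3 of the keratinocyte markers were dim by their mean. The part of the fibroblast and Schwann cell markers in the integrin and laminin differences was not tested.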

How the data were processed

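The authors deposited 1 log2 value per probe set and array, made with RMA per the submitters' processing notes, which also name Partek; for either tool, version, settings and role were not given in the sources used here. RMA corrects background, normalises between arrays and summarises probes, so small differences can shrink at low signal. The 41345 probe sets (23521 with 1 gene symbol, 1814 with several, 16010 not listed) gave 22180 genes, by the highest mean over all 6 arrays. Positions come from the GRCm38.p6 annotation. No scaling or filter was added, and 0 pairs of arrays were identical.

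The 3 heterozygous arrays were compared with the 3 wild-type arrays by limma 3.58.1 in R 4.3.3 (lmFit, eBayes, 2-sided, 4 residual and 7.87 total degrees of freedom), with Benjamini-Hochberg adjustment over all genes. The fit was tested on simulated data with equal spread in both lines and no array that stood apart. That test therefore does not cover the unequal spread seen here (median SD 0.076 in heterozygous and 0.123 in wild-type arrays) or wild-type replicate 2. Confidence intervals (95%) are not adjusted for multiple tests. Single values had an exact permutation test over 20 regroupings, whose smallest p is 0.1. Arrays give no counts, so the number of arrays limits the precision. Deviations from the line means, compared between the 2 arrays with the same replicate number, had correlations of 0.0074, 0.016 and −0.0039 over all genes. Whether these arrays were handled in pairs is not stated, and the main fit did not pair them.

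The members and lists were chosen with earlier results of these data known. Values on every array are given for members that passed, for their partner chains that were not dim, and for members above the 40th percentile in both lines. The dim partner chains Itgb6, Lama1 and Lama2 are given by ranges only. From each list the up to 3 passing genes with the largest difference were named. Fn1, Ptprc, Lyz2 and further melanocyte, fibroblast and Schwann cell markers were added after their values were seen. Of the listed adaptors Ilk, Lims2, Ptk2 and Nedd9, and of the ligands Spp1 and Fbn1, were not analysed here. Alternatives were other scaling, a filter on dim genes, the mean of probe sets, other variance models, array weights, a replicate block, thresholds and each array left out.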

Additional observations from a re-analysis of the deposited data

How the results depend on the processing

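All 14 genes that passed kept the sign of their difference under each alternative tried, and 6 kept their call under all except the stricter thresholds. Of the 21 that did not pass, 19 passed under no alternative; Itga2 passed without wild-type replicate 2, and Itga6 without that array, with dim genes left out, with trend and with array weights. With single arrays left out, integrin chains numbered 2 to 4 higher and 3 to 9 lower, laminin chains 1 higher throughout and 0 to 2 lower, and all genes 979 to 2308 higher and 779 to 1914 lower; these fits have fewer arrays, and the cause was not tested further. At an adjusted p below 0.01, integrin chains numbered 2 higher and 4 lower, laminin chains 0 lower, and all genes 888 higher and 700 lower. With the 2-fold threshold added, integrin chains numbered 1 higher and 1 lower, laminin chains 0 lower, and all genes 430 higher and 352 lower. With the replicate block, integrin chains numbered 3 higher and 6 lower, because Itga4 (adjusted p 0.0552) and Itgb4 (adjusted p 0.0511) no longer passed; arrays with the same number share only that number as far as the labels say. No other scaling or variance model moved a count by over 1.5 times. Dim chains are limited by signal over background, so a fall below it would not be detectable here.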
